A study of Mus musculus with 8 samples.

Results

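Matrix metalloproteinases (MMPs) are zinc-dependent enzymes that cut collagen, elastin and other proteins of the extracellular matrix, and tissue inhibitors of metalloproteinases (TIMPs) bind and block them. The 10 genes described here, Mmp2, Mmp9, Mmp12, Mmp13, Mmp14, Mmp15, Mmp19, Timp1, Timp2 and Timp3, were chosen by symbol as the main matrix-degrading enzymes of the liver and their inhibitors. They are 10 of the 31910 genes in the deposited count table. These genes, and the gene lists set beside them, were chosen with earlier results of these data known. RNA sequencing covered 8 samples of mouse liver, of which 4 carry the label of the adeno-associated virus AAV2/9-SA (SA 1 to 4) and 4 that of AAV2/9-Ctrl (Ctrl 1 to 4). What the SA vector encodes is not spelled out in the labels. According to its title, the series is about a tetramer-forming protein of bacterial origin, its binding to acetyl-coA carboxylase, and steatohepatitis (a fatty, inflamed liver). The design text names chow, 24 weeks of fat-rich feed, and 16 weeks of feed rich in fat and cholesterol plus sugar in the drinking water. Mice received 4.8e10 vector genomes by tail vein once 7 weeks of feeding had passed. The diet behind each sample, the strain, sex and age of the mice, and the promoter of the vector are not given in the sources used here. The labels do not state whether each sample came from its own animal, and p-values cover only sample-to-sample spread, which may be technical.

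In a healthy liver MMPs are made at low levels and most are secreted as inactive precursors. In fatty liver disease with scarring, hepatic stellate cells turn into collagen-producing cells that also make MMP2, TIMP1 and TIMP2, and macrophages make MMP12 and, while scars dissolve, MMP13. The balance between enzymes and TIMPs is held to set how fast scar matrix is removed, and messenger RNA shows only part of it, since activation and inhibition happen at the protein level.

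Total counts were 14114145 to 15922829 in 7 libraries and 28184001 in SA 4. Mitochondrial transcripts made up 3.55% to 4.87% of each library except Ctrl 4, where they reached 9.23%. The summed level of 8 hepatocyte markers, among them Alb and Ttr, was 76573 to 99909 counts per 1e6 counts (CPM) in SA and 81018 to 110229 CPM in Ctrl, which fits the labelled tissue. All levels in CPM here are counts scaled by the library's normalized total, and they can be compared between libraries but not between genes of different length.

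Only 7 of the 10 genes had any counts. Mmp19, Timp1 and Timp3 were listed at 0 in all 8 libraries of the count table, where 3 counts would stand for 0.108 to 0.215 CPM. For Mmp19 and Timp3 the deposited FPKM table (fragments scaled by gene length and depth, so a level per length) nevertheless gave values far from 0, 32.4 to 43.4 FPKM for Mmp19 and 11.3 to 15.3 FPKM for Timp3 in SA. In the GENCODE M21 annotation these 3 genes lie wholly inside another gene on the opposite strand, Mmp19 in Gm47093, Timp1 in Syn1 and Timp3 in Syn3. Timp4, the fourth inhibitor, lies inside Syn2 and was also at 0 in every library. Of the genes found in both tables, 271 of 273 that lie wholly inside another gene of the count table had 0 counts, against 206 of 8221 that do not. With all annotated genes as possible hosts, which brings in Mmp19, the shares were 356 of 427 and 121 of 8067. The 0 counts of Mmp19 and Timp3 are therefore not read as absence of their RNA. Timp1 is missing from the FPKM table and so lies outside this comparison. Whether its RNA was present cannot be told from either table. For Timp1, the inhibitor most used as a marker of liver scarring, no level is given here.

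**Figure D1:**
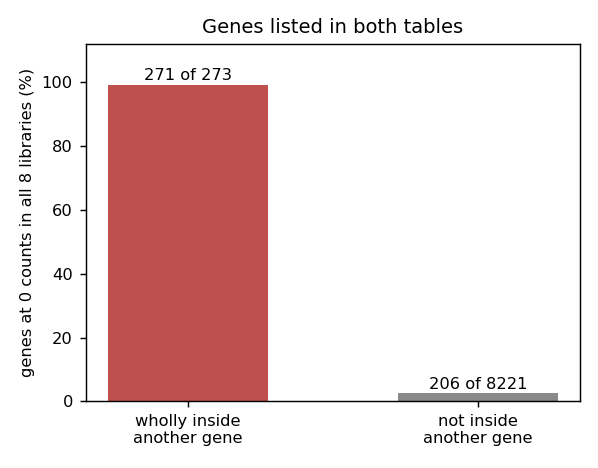
Share of genes at 0 counts in all 8 libraries (y axis, %) among genes present in both deposited tables, for genes that lie wholly inside another gene of the count table and for those that do not. The first bar stands at 271 of 273 genes and the second at 206 of 8221.

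The collagenase and elastase genes Mmp13 and Mmp12 had the lowest SA to Ctrl ratios among the 7 chosen genes with counts. Neither is among the 5 chosen genes that the FPKM table lists, nor are Mmp2 and Mmp9, so their levels rest on counts alone. Mmp13 encodes collagenase 3, the main enzyme that cuts fibrillar collagen in rodents. Its level was 0.939, 1.13, 1.38 and 0.687 CPM in SA 1 to 4, against 6.55, 1.65, 3.86 and 1.72 CPM in Ctrl 1 to 4. Every SA library lay below every Ctrl library, but SA 3 and Ctrl 2 were close, and Ctrl 1 alone stood at 3.96 times the level of Ctrl 2. The means were 1.03 ± 0.294 CPM in SA and 3.45 ± 2.31 CPM in Ctrl (SD, n = 4 each), and the log2 fold change of SA over Ctrl was -1.76 ± 0.46 (SE). It did not pass the test over all genes (edgeR quasi-likelihood test, Benjamini-Hochberg adjusted p = 0.396), while DESeq2 called it lower (adjusted p = 0.0369). Groups without overlap were found for 3.12% of the 12358 genes tested, and for 1.46% with SA the lower, and DESeq2 called 0.283% of genes lower. The counts behind Mmp13 were small, 14 to 20 in SA and 24 to 96 in Ctrl.

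Mmp12 encodes macrophage elastase. Its level was 6.71, 6.51, 7.33 and 9.00 CPM in SA 1 to 4, against 34.6, 4.21, 21.5 and 22.6 CPM in Ctrl 1 to 4. The groups overlapped, because Ctrl 2 lay below all SA libraries while the other 3 Ctrl libraries lay far above them. Mean levels were 7.39 ± 1.13 CPM in SA and 20.7 ± 12.5 CPM in Ctrl (SD, n = 4 each). On the log2 scale SA over Ctrl was -1.48 ± 0.43 (SE), with an adjusted p of 0.480 in edgeR. Without Ctrl 2 the value was -1.82 and passed the test (edgeR, adjusted p = 0.0135). Without Ctrl 1 it was -1.12 (edgeR, adjusted p = 0.998).

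Monocytes and recruited macrophages are cells known to make Mmp12. Of 10 markers of these cells 9 could be tested and 0 passed, with 6 at an unadjusted p under 0.05, beside 6.21% of all genes. All 9 had negative log2 fold changes, beside 51.3% of all genes tested. Their summed level was 70.7 to 95.6 CPM in SA and 64.3 to 302 CPM in Ctrl, lowest in Ctrl 2 and highest in Ctrl 1 like Mmp12, and no marker was at 0. Kupffer cell markers were at 757 to 1109 CPM in SA and 625 to 978 CPM in Ctrl, with 7 of 8 positive. A large part of this sum was C6, the negative one, at 182 to 549 CPM in SA and 238 to 525 CPM in Ctrl. In whole tissue, fewer cells of a type and less RNA per cell cannot be told apart, and the part of these cells in the Mmp12 values was not tested.

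Mmp12 and Mmp13 sit in the MMP gene cluster of chromosome 9. Of the 7 members with a promoter window, they were the 2 that held the motif TGANTCA, the binding sequence of the transcription factor AP-1. The promoters are shown because these were the genes with the largest differences in level. Sequences are RefSeq's, build GRCm38.p6, plus strand, from 250 bases before to 50 bases after the annotated start, with the motif in capitals. The motif was searched as TGANTCA, which reads alike on both strands. The Mmp12 window at chr9:7347124-7347423 holds it from 44 bases before the start, and the Mmp13 window at chr9:7272264-7272563 from 35 bases before.
Mmp12: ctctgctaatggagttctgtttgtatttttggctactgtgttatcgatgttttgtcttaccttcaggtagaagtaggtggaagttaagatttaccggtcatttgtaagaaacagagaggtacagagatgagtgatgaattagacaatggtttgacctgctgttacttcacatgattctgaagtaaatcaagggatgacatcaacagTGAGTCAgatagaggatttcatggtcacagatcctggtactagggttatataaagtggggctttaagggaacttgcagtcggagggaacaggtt
Mmp13: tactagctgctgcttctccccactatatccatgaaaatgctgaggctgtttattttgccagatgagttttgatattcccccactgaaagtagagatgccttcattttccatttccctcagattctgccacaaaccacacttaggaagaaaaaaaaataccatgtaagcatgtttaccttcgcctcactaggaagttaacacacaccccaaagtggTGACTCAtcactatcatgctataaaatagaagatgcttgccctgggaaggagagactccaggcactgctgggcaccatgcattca
A second annotated start of Mmp12, at chr9:7344147-7344446, did not hold the motif, nor did the windows of Mmp14, Mmp15, Timp1, Timp2 and Timp3. Of the 10 members 7 had a window in the table, while Mmp2, Mmp9 and Mmp19 had none and were not searched. Among the 7 with a window, 2 had the motif in at least 1 window, beside 8.97% of 27025 genes. A match describes these letters only and says nothing of binding.

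Mmp2, Mmp14 and Timp2 encode partners of one mechanism. The membrane-type enzyme MMP14 holds TIMP2 at the cell surface, and this complex activates the precursor of MMP2, which cuts denatured collagen and basement membrane collagen. Mmp2 was at 3.49, 3.82, 4.36 and 3.07 CPM in SA 1 to 4, against 14.1, 2.76, 4.65 and 9.91 CPM in Ctrl 1 to 4. The SA libraries lay close together between Ctrl 2 and the other 3 Ctrl libraries. Mean Mmp2 was 3.68 ± 0.542 CPM in SA and 7.86 ± 5.16 CPM in Ctrl (SD, n = 4 each), or -1.10 ± 0.41 as a log2 ratio (SE; adjusted p = 0.670 in edgeR). Leaving out Ctrl 1 gave -0.65.

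Timp2, the only inhibitor with counts, showed the same order of control libraries. Its level was 21.1, 20.6, 24.1 and 18.04 CPM in SA 1 to 4, against 45.2, 15.3, 25.5 and 37.7 CPM in Ctrl 1 to 4. Again Ctrl 2 lay below the SA libraries, and Ctrl 1, Ctrl 3 and Ctrl 4 lay above them. The means were 21.0 ± 2.50 CPM in SA and 30.9 ± 13.2 CPM in Ctrl (SD, n = 4 each), or -0.56 ± 0.27 as a log2 ratio (SE; adjusted p = 0.828 in edgeR), and -0.32 without Ctrl 1. The authors' FPKM gave 6.94, 7.58, 9.06 and 6.61 FPKM in SA 1 to 4 and 17.1, 4.84, 11.0 and 11.8 FPKM in Ctrl 1 to 4, with a log2 difference of -0.41 ± 0.32 (SE; limma on log2(FPKM + 1), adjusted p = 0.999). Both tables thus placed Ctrl 2 lowest and Ctrl 1 highest for Timp2.

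Mmp14 had the smallest log2 spread of the 7 genes in SA, at 48.6, 49.0, 51.5 and 50.3 CPM in SA 1 to 4, against 78.3, 36.4, 53.5 and 54.5 CPM in Ctrl 1 to 4. Ctrl 1 was high and Ctrl 2 low, with the SA libraries between Ctrl 2 and the other Ctrl libraries. Mean Mmp14 was 49.8 ± 1.29 CPM in SA and 55.7 ± 17.2 CPM in Ctrl (SD, n = 4 each), or -0.16 ± 0.19 as a log2 ratio (SE; adjusted p = 0.996 in edgeR). The sign turned without Ctrl 1, to 0.046, and the value was -0.31 without Ctrl 2. In FPKM, Mmp14 was at 17.0, 19.6, 20.7 and 18.1 in SA 1 to 4. Ctrl 1 to 4 had 29.4, 11.1, 24.7 and 17.6 FPKM, so there Ctrl 4 lay within the SA range. The log2 difference was -0.046 ± 0.28 (SE; limma on log2(FPKM + 1), adjusted p = 0.999).

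Stellate cells are a known source of Mmp2 and Timp2. Of 11 stellate cell markers 9 could be tested and 0 passed, with 4 at an unadjusted p under 0.05, beside 6.21% of all genes. All 9 had negative log2 fold changes, beside 51.3% of all genes, and Lrat was at 0 in every library. Their summed level was 273 to 334 CPM in SA and 329 to 538 CPM in Ctrl. Ctrl 1 and Ctrl 4, the libraries with the most Mmp2 and Timp2, had 527 and 538 CPM, while Ctrl 2 and Ctrl 3 had 329 and 381 CPM. The order of the sum was not that of Mmp2 and Timp2 throughout. Ctrl 2 lay above SA 1, SA 2 and SA 4 for the sum and below all SA libraries for both genes. Dcn made up 178 of the 329 CPM in Ctrl 2. Pdgfrb and Des did have Ctrl 2 below all SA libraries, at 8.55 and 5.31 CPM, and the other markers did not. The part of stellate cells in the Mmp2 and Timp2 values was not tested.

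**Figure D2:**
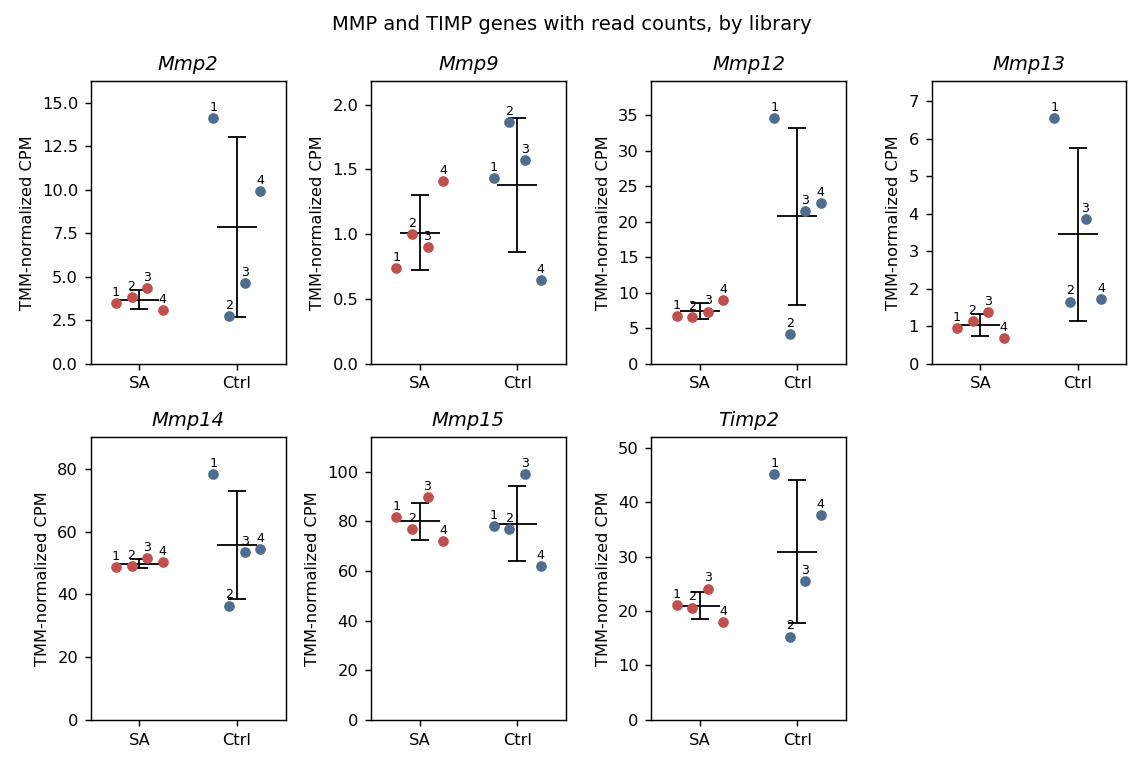
TMM-normalized CPM (y axis) of the 7 genes with counts in each SA and Ctrl library (points, numbered by library), with the group mean and SD (bars, n = 4 each). For Mmp2, Mmp12, Mmp13, Mmp14 and Timp2 the point of Ctrl 1 is the highest of the 8. For each of these genes the SA points span a narrower range than the Ctrl points. Mmp13 runs from 0.687 to 1.38 CPM in SA and from 1.65 to 6.55 CPM in Ctrl.

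The gelatinase gene Mmp9 and the membrane-type gene Mmp15 did not share that order. Mmp9, a neutrophil and macrophage product, was at 0.738, 1.001, 0.899 and 1.41 CPM in SA 1 to 4, against 1.43, 1.86, 1.57 and 0.646 CPM in Ctrl 1 to 4. Ctrl 4 was the lowest and Ctrl 2 the highest of all libraries. The counts were 11 to 39 in SA and 9 to 27 in Ctrl, with a log2 ratio of -0.42 ± 0.39 (SE; adjusted p = 0.996 in edgeR), with -0.24 without Ctrl 2 and -0.65 without SA 4 or Ctrl 4. Only 3 of 11 neutrophil markers could be tested, all negative, with summed levels of 7.13 to 11.5 CPM in SA and 7.38 to 18.1 CPM in Ctrl, and Ly6g and Camp were at 0. Their part in the Mmp9 values was not tested.

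Mmp15 was nearly level between the groups. It was at 81.6, 76.8, 89.7 and 72.1 CPM in SA 1 to 4, against 78.2, 76.9, 99.0 and 62.1 CPM in Ctrl 1 to 4. All SA values fell within the range of Ctrl. The log2 ratio was 0.017 ± 0.16 (SE; adjusted p = 0.996 in edgeR), and its sign turned under upper quartile scaling (-0.022), with the mitochondrial share as a covariate (-0.027), without SA 3 (-0.041) and without Ctrl 4 (-0.090).

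For Mmp19 and Timp3 only FPKM could be compared. Mmp19, an enzyme that cuts basement membrane proteins, was at 42.3, 36.1, 32.4 and 43.4 FPKM in SA 1 to 4, against 33.7, 31.5, 33.1 and 19.6 FPKM in Ctrl 1 to 4. SA 3 lay within the Ctrl range, and Ctrl 4, the library with the highest mitochondrial share, stood below the other 7. The means were 38.6 ± 5.21 FPKM in SA and 29.5 ± 6.63 FPKM in Ctrl (SD, n = 4 each), a log2 difference of 0.40 ± 0.21 on the log2(FPKM + 1) scale (SE; limma, adjusted p = 0.999), and 0.22 without Ctrl 4. It had the largest difference toward SA among the 9 genes with values, and reads of the opposite-strand Gm47093 may not be told apart from it.

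Timp3 encodes the inhibitor that stays bound to the matrix and also blocks ADAM proteases. It was at 11.3, 15.3, 13.8 and 12.7 FPKM in SA 1 to 4, against 15.7, 7.998, 16.8 and 14.5 FPKM in Ctrl 1 to 4. The SA libraries lay within the range of Ctrl, where Ctrl 2 was the lowest of the 8. The log2 difference was -0.0080 ± 0.24 (SE; limma on log2(FPKM + 1), adjusted p = 0.999), with a range of -0.23 without Ctrl 2 to 0.10 without Ctrl 3. As for Mmp19, reads of the opposite-strand gene, here Syn3, may not be told apart from Timp3. In the FPKM fit 0.0324% of 9255 genes passed an adjusted p of 0.05 and 3.52% an unadjusted p of 0.05, and 0 of the 5 MMP and TIMP genes in it did either, while 2.05% of genes did not overlap between groups.

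**Figure D3:**
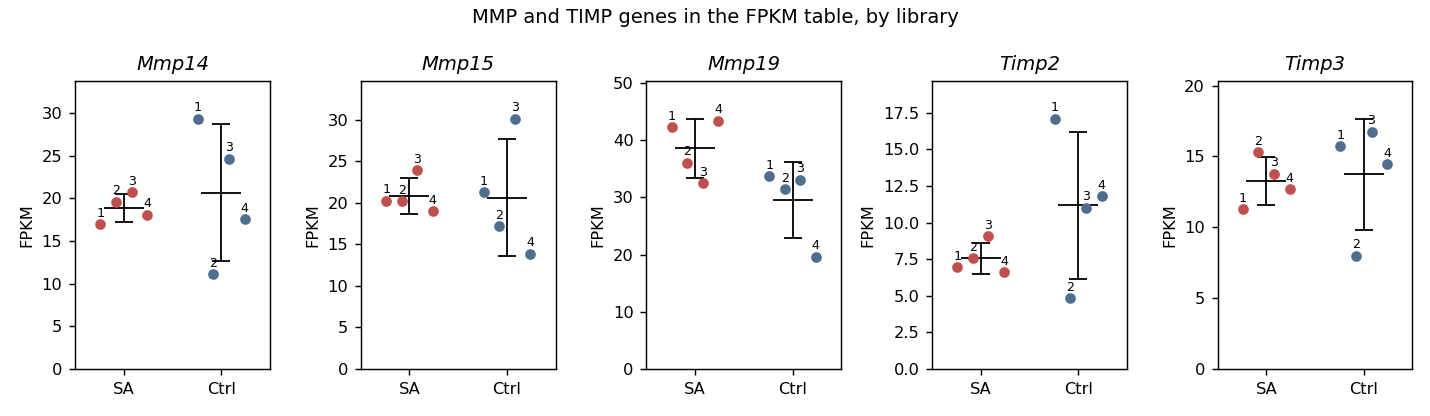
FPKM (y axis) of the 5 chosen genes that the FPKM table lists, in each SA and Ctrl library (points, numbered by library), with the group mean and SD (bars, n = 4 each). Mmp19 stands at 32.4 to 43.4 FPKM in SA and 19.6 to 33.7 FPKM in Ctrl, and Timp3 overlaps fully between the groups.

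Per length, Mmp19 was the most abundant of the 5 genes with FPKM, above Mmp15 in all 8 libraries. Mmp15 averaged 20.9 ± 2.16 FPKM in SA and 20.6 ± 7.03 FPKM in Ctrl, and Mmp14 18.9 ± 1.65 FPKM in SA and 20.7 ± 8.02 FPKM in Ctrl (SD, n = 4 each). These neighbours did not differ beyond their spread, with Mmp15 the higher in 6 of 8 libraries. Mmp14 was above Timp3 in 8 of 8 libraries and Timp3 above Timp2 in 7 of 8. From counts, as CPM per kilobase of the longest GENCODE M21 transcript, Mmp14 and Mmp15 led at 15.4 ± 0.399 and 15.6 ± 1.47 in SA and 17.2 ± 5.32 and 15.4 ± 2.96 in Ctrl (SD, n = 4 each). Timp2 followed at 5.66 ± 0.673 in SA and 8.34 ± 3.56 in Ctrl, and Mmp12 at 1.65 ± 0.253 in SA and 4.63 ± 2.80 in Ctrl. Mmp2 had 1.20 ± 0.176 in SA and 2.55 ± 1.68 in Ctrl, and Mmp13 0.387 ± 0.110 in SA and 1.29 ± 0.864 in Ctrl, while Mmp9 was lowest at 0.319 ± 0.0903 in SA and 0.434 ± 0.164 in Ctrl. Apart from Mmp14 and Mmp15, each gene in this order lay above the next in 8 of 8 libraries, or in 7 of 8 for Mmp13 and Mmp9.

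Across the 7 genes with counts, 6 had a negative log2 fold change, beside 51.3% of all genes tested, and their median was -0.56 against -0.01 for all genes. None passed an adjusted p of 0.05 in edgeR, where 0.0162% of all genes did and 0.00809% were called lower. An unadjusted p under 0.05 was reached by Mmp13, Mmp12 and Mmp2, all lower in SA, so by 3 of 7, beside 6.21% of all genes and 3.29% with SA the lower. DESeq2 called 1 of the 7, beside 0.478% of all genes, and limma-voom called none. All 7 entered the test, so none was lost to the low-count filter.

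**Figure D4:**
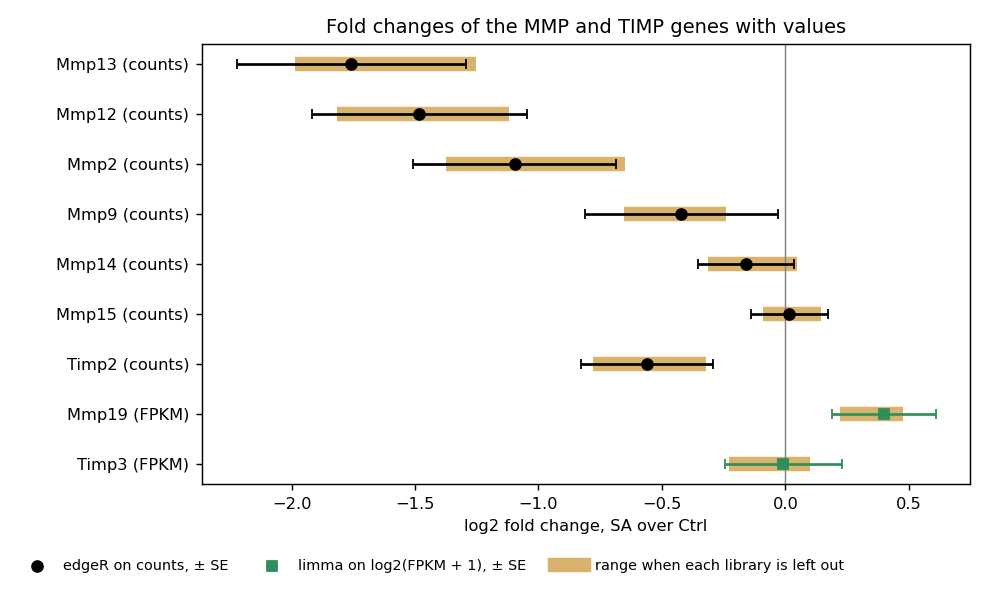
Log2 fold change of SA over Ctrl (x axis) for the 7 genes with counts (edgeR) and for Mmp19 and Timp3 (limma on log2(FPKM + 1)), with SE (thin bars) and the range of values when each library is left out (thick bars). Mmp13, Mmp12, Mmp2, Mmp9 and Timp2 stay below 0 in every omission, Mmp19 stays above 0, and Mmp14, Mmp15 and Timp3 cross it.

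The spread between libraries was wider in Ctrl for these genes, as for most genes in the table. On the log2(CPM + 0.5) scale the SD of Mmp12 was 0.20 in SA and 1.27 in Ctrl, of Mmp2 0.19 in SA and 0.98 in Ctrl, and of Mmp14 0.04 in SA and 0.45 in Ctrl. All 7 genes had the wider spread in Ctrl, as did 73.5% of all tested genes, whose median SD was 0.20 in SA and 0.31 in Ctrl. Ctrl 1 was the highest of the 8 libraries for 5 of the 7 genes, beside 15.0% of all tested genes. Ctrl 2 was the lowest for Mmp2, Mmp12, Mmp14 and Timp2, beside 14.4% of all tested genes. The ratio of Ctrl 1 to Ctrl 2 was 8.23 for Mmp12, 5.12 for Mmp2, 2.95 for Timp2 and 2.15 for Mmp14, but 0.770 for Mmp9 and 1.02 for Mmp15. What set these 2 control libraries apart was not tested.

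**Figure D5:**
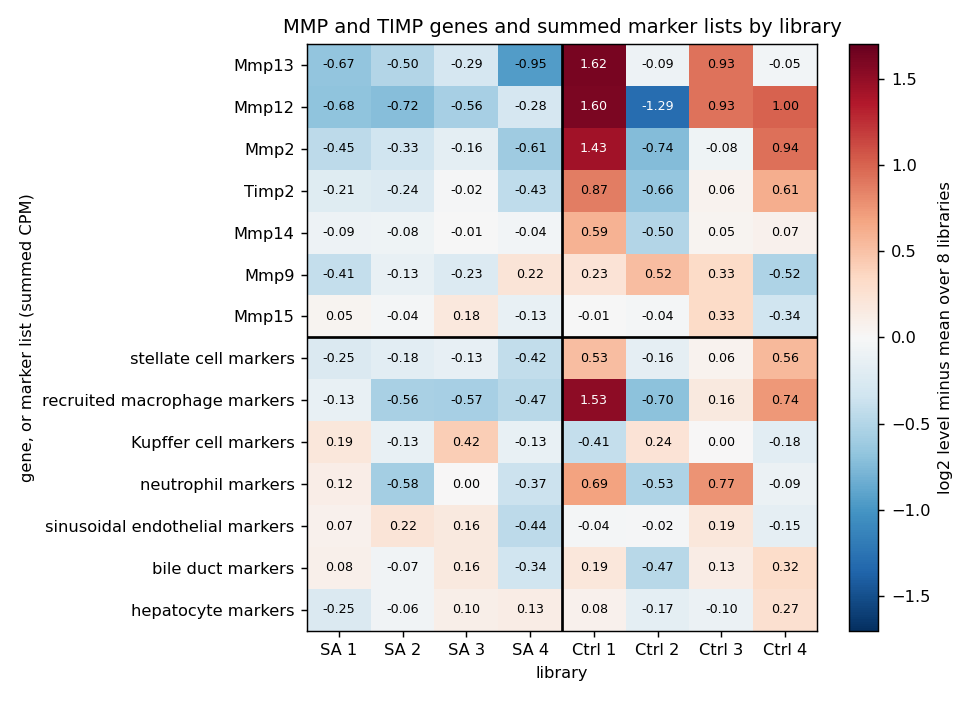
Log2 level minus the mean over the 8 libraries (colour and printed value) for the 7 genes with counts (top) and for the summed CPM of 7 marker lists (bottom), SA libraries left and Ctrl libraries right. Levels are CPM + 0.5 for the genes and summed CPM with nothing added for the lists. Mmp12 reads 1.60 in Ctrl 1 and -1.29 in Ctrl 2, and the recruited macrophage sum 1.53 and -0.70 in the same libraries.

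The genes most like Mmp13 across the 8 libraries were Tnc, which encodes the matrix protein tenascin C, Mmp23 and Ptafr, the receptor of platelet-activating factor. Likeness was the mean absolute difference of centred log2(CPM + 0.5) levels, at 0.17, 0.22 and 0.23, against a median of 0.69 over all tested genes. The added 0.5 shrinks differences of genes at low levels such as Mmp13. For Timp2 they were Gpr153, Antxr1 and Mest, at 0.11 each, against a median of 0.44. These genes had log2 fold changes of -2.54 for Tnc, -1.17 for Mmp23, -1.12 for Ptafr, -0.64 for Gpr153, -0.41 for Antxr1 and -0.52 for Mest, and none passed the test over all genes.

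Of the 17 other genes of the family, 13 had counts but only 4 had enough to be tested, and 0 passed. An unadjusted p under 0.05 was reached by 1 of the 4, beside 6.21% of all genes. Mmp23, a membrane enzyme without the usual C-terminal domain, was at 1.07, 1.19, 1.73 and 0.615 CPM in SA 1 to 4, against 5.12, 1.52, 2.05 and 1.51 CPM in Ctrl 1 to 4, or -1.17 ± 0.47 as a log2 ratio (SE; adjusted p = 0.713 in edgeR). Mmp17, a membrane-anchored enzyme, had -0.96 ± 0.44 (SE), at 0.645 ± 0.126 CPM in SA and 1.25 ± 0.630 CPM in Ctrl (SD, n = 4 each). Mmp27 had 0.38 ± 0.33 and Mmp28 0.28 ± 0.50 (SE). The remaining genes with counts, Mmp3, Mmp7, Mmp8, Mmp10, Mmp11, Mmp16, Mmp21, Mmp24 and Mmp25, had at most 13 counts in a library. Mmp1a, Mmp1b, Mmp20 and Timp4 were at 0 throughout.

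Genes that switch MMPs on or off were mostly near level. Of 16 activators and other inhibitors 15 were tested, 0 passed, and 11 had negative values with a median of -0.08. An unadjusted p under 0.05 was reached by 2 of the 15, beside 6.21% of all genes. Plau, the urokinase that generates plasmin, was at 3.40 ± 0.383 CPM in SA and 6.39 ± 2.33 CPM in Ctrl (SD, n = 4 each), or -0.91 ± 0.27 as a log2 ratio (SE; adjusted p = 0.509 in edgeR). Plat, the tissue plasminogen activator, had -1.85 ± 0.63, A2m, a broad protease inhibitor, -1.37 ± 0.64, and Plaur, the urokinase receptor, -0.84 ± 0.56 (SE).

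Among 28 related ADAM and ADAMTS proteases, 21 were tested, 0 passed and 14 were negative, with a median of -0.21. An unadjusted p under 0.05 was reached by 5 of the 21, beside 6.21% of all genes. Adamts2, which trims the ends of newly made collagen, was at 7.49 ± 0.900 CPM in SA and 15.9 ± 6.05 CPM in Ctrl (SD, n = 4 each) without overlap, a pattern shared by 1.46% of all genes, or -1.09 ± 0.26 as a log2 ratio (SE; adjusted p = 0.342 in edgeR). Adam8 had -2.004 ± 0.58, Adamts12 -1.12 ± 0.50 and Adamts1 -0.43 ± 0.17 (SE). Of 7 other collagen-degrading proteases and receptors 6 were tested and 0 passed, with 1 of the 6 at an unadjusted p under 0.05, beside 6.21% of all genes. Ctsk, cathepsin K, was at -0.95 ± 0.40, the collagen receptor Mrc2 at -0.57 ± 0.47, Ctss at -0.20 ± 0.20 and Ctsl at -0.13 ± 0.18 (SE).

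Most matrix genes whose products these enzymes cut had negative log2 fold changes as well. Of 15 such genes all were tested, 0 passed and 13 were negative, with a median of -0.67, and 8 had an unadjusted p under 0.05. Among all tested genes 51.3% were negative and 6.21% had such a p. The summed level of the 15 genes was 3704 to 5115 CPM in SA and 3765 to 4148 CPM in Ctrl, so the sum was not lower in SA. Most of that sum came from genes other than Col3a1, Col1a1, Col1a2 and Col5a2, so it does not describe these collagens. Col1a1 was at 16.6 ± 5.94 CPM in SA and 68.2 ± 53.9 CPM in Ctrl, and Col1a2 at 21.8 ± 3.72 and 60.6 ± 42.6 CPM. Col5a2 was at 4.84 ± 0.472 CPM in SA and 12.4 ± 7.80 CPM in Ctrl (SD, n = 4 each). The groups overlapped for Col1a1, Col1a2 and Col3a1. They did not for Col5a2, lower in SA, a pattern shared by 1.46% of all genes. Col3a1 was at 42.0 ± 8.94 CPM in SA and 126 ± 79.5 CPM in Ctrl (SD, n = 4 each). Its log2 fold change of -1.58, and those of Col1a1 at -2.04, Col1a2 at -1.47 and Col5a2 at -1.36, were of the size of Mmp13 and Mmp12. Whether the enzyme genes and the collagen genes differed in fold change was not tested.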

How the data were processed

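RNA of 8 frozen liver samples was sequenced, with NEBNext Ultra libraries that the labels do not describe as strand-specific. The deposited count table holds raw read counts per gene and the deposited FPKM table holds FPKM values of 9265 genes as computed upstream by the authors. The submitters' processing notes list HISAT2, StringTie 2.2.1, GRCm39 and mm10. The sources used here do not state which program or build made which table.

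Counts of 4 SA and 4 Ctrl libraries were tested with the quasi-likelihood test of edgeR 4.0.16 in R 4.3.3 (TMM factors, filterByExpr, 12358 genes), with Benjamini-Hochberg adjustment over all genes and a threshold of 0.05. A standard error is the log2 fold change over the root of F. FPKM values were tested with limma 3.58.1 on log2(FPKM + 1) for 9255 genes with at least 0.5 FPKM in at least 4 libraries, a scale that understates changes of low genes. The main result of Mmp19 and Timp3 comes from FPKM, since their counts were 0. The edgeR fit and a limma fit on log2 CPM were tested on simulated counts, while DESeq2 and limma on FPKM were not. The comparison of nested genes used genes in both tables with a single position in GENCODE M21. The biological coefficient of variation was 22.6%, and no libraries were near duplicates (chi-square per degree of freedom at least 33.2 within a group). The members, lists and tests were chosen with earlier results of these data known. All 10 members are named, and of the other lists up to 4 genes with the smallest p. Likeness was ranked for the MMP and the TIMP with the smallest p. Alternatives were DESeq2 1.42.0, limma-voom, other scalings, filters and pseudocounts, each library left out, the replicate number as a block and the mitochondrial share as a covariate.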

Additional observations from a re-analysis of the deposited data

Results flagged for a closer look

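In groups of 4, single libraries stood apart from the other 3 by Dixon's criterion in 12 of 98 groups examined. Chance gives about 5% for continuous values, a share that does not apply to the genes with few counts below, so the number of groups is not read against it. Mmp19 was at 19.6 FPKM in Ctrl 4, against 31.5 to 33.7 FPKM in the other Ctrl libraries. Mmp23 was at 5.12 CPM in Ctrl 1, against 1.51 to 2.05 CPM in the others. Adamts1 was at 17.5 CPM in SA 3, against 14.1 to 14.4 CPM in the other SA libraries. Col3a1 was at 55.3 CPM in SA 1, against 36.5 to 38.9 CPM in the other SA libraries. The remaining 8 rest on at most 13 counts. Mmp11 was at 0.813 CPM in SA 2, where the rest of SA had 0.335 to 0.415 CPM. It was at 0.552 CPM in Ctrl 2, where the rest of Ctrl had 0.409 to 0.431 CPM. Mmp25 was at 0.201 CPM in SA 1, against 0.0626 to 0.0723 CPM in the other SA libraries. Mmp7 was at 0 CPM in SA 1, where the other SA libraries had 1 or 2 counts. In Ctrl 1, Mmp10 was at 0.205 CPM and Mmp16 at 0.341 CPM, with 0 in the other Ctrl libraries. In Ctrl 3, Mmp3 was at 0.0603 CPM and Mmp21 at 0.121 CPM, also with 0 in the others.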

How the results depend on the processing

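Of all genes tested, 2 passed. The count was 59 with DESeq2, 8 without the low-count filter, 6 with the replicate block, 1 with the mitochondrial share as a covariate and 0 to 19 when single libraries were left out. Of the MMP and TIMP genes 0 passed, and 1 did with DESeq2 (Mmp13) and 0 to 1 when single libraries were left out, the 1 being Mmp12 without Ctrl 2. Mmp2, Mmp9, Mmp12, Mmp13 and Timp2 were negative and Mmp19 positive in all alternatives run for them. With single libraries left out Mmp14 ranged from -0.31 to 0.046 (positive without Ctrl 1) and Mmp15 from -0.090 to 0.14 (negative without SA 3, at -0.041, and Ctrl 4). Timp3 ranged from -0.23 to 0.098, and was positive without SA 1 (0.062), SA 4 (0.0096), Ctrl 1 (0.069), Ctrl 3 (0.098) and Ctrl 4 (0.031). Mmp15 was also -0.022 with upper quartile factors and -0.027 with the mitochondrial covariate. The causes were not tested. Upper quartile factors shifted the median of all genes by -0.036. Libraries with the same number did not deviate together (correlations of -0.02, -0.01, 0.24 and -0.24), so the numbers are not treated as pairs. Mmp9 and Mmp13 had under 100 counts in every library.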

Other observations

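The count table listed 495 genes at 0 in all 8 libraries for which the FPKM table held values above 0, among them Mmp19 and Timp3. The lowest value in the FPKM table was 0.188 FPKM. Among the marker lists, Lrat of stellate cells, Ly6g and Camp of neutrophils and Ms4a1 of B cells were also at 0 counts throughout.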
